A study of Mus musculus with 24 samples.

Results

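Homozygous loss of Setd1a was compared with heterozygous loss in the sorted stem cell fraction of mouse small intestinal crypts. The comparison used the 8 libraries that the labels assign to stem cells, 4 per genotype, out of 24 libraries in the series. The other 16 libraries are the transit-amplifying (TA) and Paneth fractions of the same 8 animals. Control mice carried Setd1aFC/+; Lgr5-eGFP-CreERT2 and are called het. Knockout mice carried Setd1aFC/FC; Lgr5-eGFP-CreERT2 and are called hom. Every animal of both genotypes therefore carried Cre and at least 1 conditional Setd1a allele, and tamoxifen was given to every animal at 1 mg a day for 3 days. Cells were taken 4 days after induction, and live cells were sorted with antibodies to EpCAM, CD24 and CD45. No animal without Cre or without tamoxifen was part of the comparison, so it shows loss of both copies against loss of 1. Cre was expressed from the Lgr5 promoter, and the share of sorted cells that had recombined was not measured. Values of single libraries are given in the order BN44, BO27, BO58, BP03 for het and BN45, BO25, BO57, BP04 for hom, the codes by which the labels name the animals. Each library came from 1 animal, so the p-values of genotype comparisons within a fraction measure the spread between animals of a genotype. Those of the difference between stem and TA effects come from a fit with the animal as a term. They measure how far that difference between fractions varies from animal to animal.

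SETD1A is a catalytic subunit of a COMPASS complex, which methylates lysine 4 of histone H3 at promoters of active genes, many of them in CpG islands. Its closest paralog is SETD1B, and both share subunits such as the CpG-binding protein CXXC1 and the HCF proteins. Lgr5-positive cells at the base of the crypt divide throughout life, renew the epithelium through TA cells, and depend on Wnt signalling and on mitochondrial activity.

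The table gave raw counts per gene. Stem libraries held 28.19 to 47.05 M counts in het and 29.11 to 38.09 M in hom animals. Levels are in CPM, the counts scaled to a common library size, after TMM scaling among the 8 stem libraries, and genes were tested with the edgeR quasi-likelihood test with Benjamini-Hochberg adjustment over 16056 genes. Counts of mitochondrially encoded genes made up 13.97 ± 2.69% of a het and 16.1 ± 2.72% of a hom library (SD, n = 4 each), a difference within the spread between libraries (exact two-sided permutation p = 0.343). Pseudogenes took 9.02 ± 0.449% in het and 8.06 ± 0.378% in hom libraries (exact two-sided permutation p = 0.0571, against a smallest possible p of 0.0286, and 0.171 after adjustment over 4 library measures). 2 female and 2 male animals were in each genotype.

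The stem identity of the fraction was checked on its markers. Lgr5, the R-spondin receptor gene, stood at 156, 194, 191 and 184 CPM in the het libraries. Hom libraries held 248, 238, 231 and 207 CPM. All 4 hom libraries lay above all 4 het libraries, as they did for 298 genes of 16056 tested (1.86%). The log2 fold change was 0.35 (SE 0.13, adjusted p = 0.64). Olfm4, a secreted glycoprotein of crypt base cells, was at 31400 ± 3233 CPM in het and 37700 ± 7413 CPM in hom, with overlapping libraries. In TA libraries, scaled among themselves, Lgr5 was at 9.57 ± 3.92 CPM and Olfm4 at 6670 ± 1645 CPM in het animals. Of 23 stem markers tested, 17 had a log2 fold change above 0, with a median of 0.11, and 8105 of all tested genes (50.5%) did. Soat1, a sterol acyltransferase gene, had the highest log2 fold change of them at 0.56 (adjusted p = 0.64).

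Transcripts of other cell types were also present, and the plot of marker sums shows them for each library. Summed CPM of 13 Paneth cell markers ran from 2097 to 5038 in het and from 2223 to 3708 in hom libraries, and those of goblet cell markers from 113 to 731 and from 165 to 1261. Immune markers summed to between 5.6 and 46.5 CPM, tuft cell markers to between 7.8 and 24.7, and stromal and endothelial markers to at most 3.4. Of 9 enteroendocrine markers tested 8 had a log2 fold change below 0, with a median of -1.66, and without BN44 and BN45 it was 4 of 9 and 0.76. Of 30 enterocyte markers 23 were below 0, and the median was -0.71. Apoa1, an apolipoprotein of enterocytes, held 1.84, 122, 10.9 and 146 CPM in het and 2.64, 5.43, 14.9 and 8.97 CPM in hom libraries. The high values were those of BO27 and BP03 alone, and without these 2 libraries 13 of 30 enterocyte markers were below 0 and the median was 0.23. In bulk RNA, fewer cells of a type and less RNA per cell cannot be told apart.

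**Figure D1:**
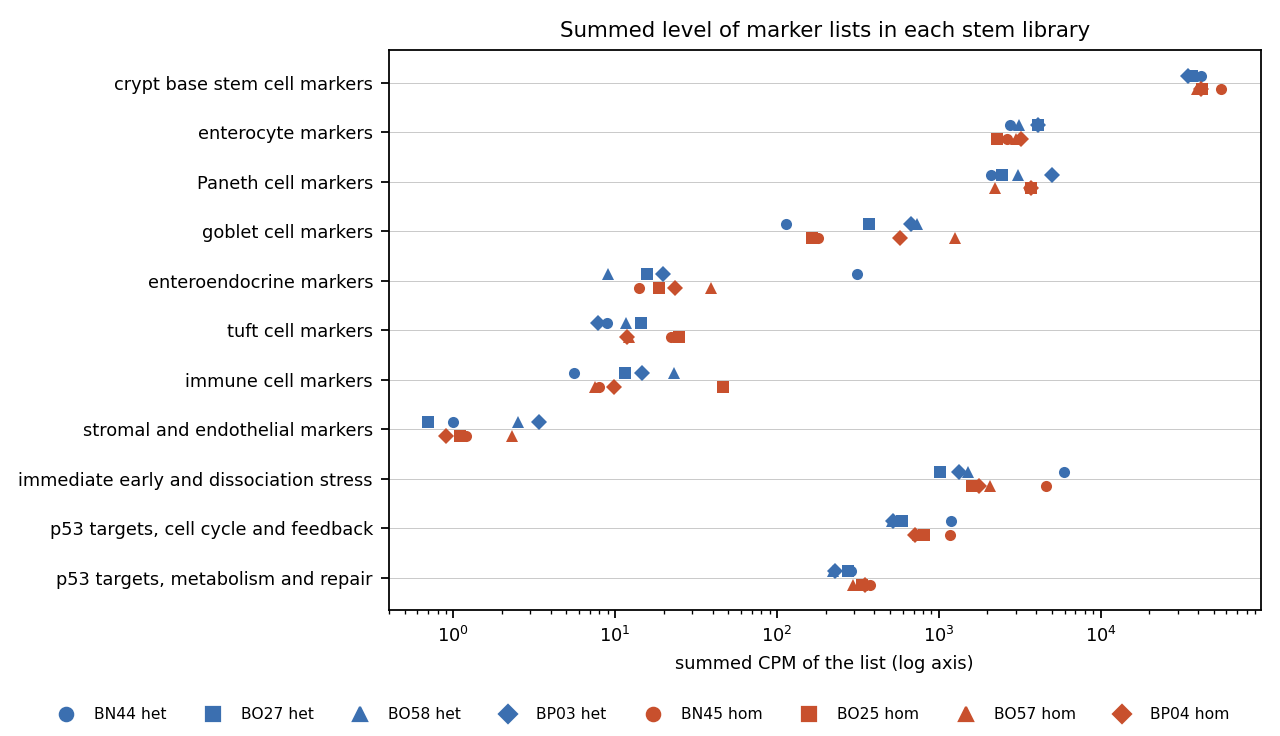
Summed CPM of 11 gene lists (rows, log axis) in each of the 8 stem libraries, with het animals in blue and hom animals in orange and 1 symbol shape per animal within a genotype. BN44 and BN45 hold the highest sums of immediate early genes and of the p53 targets of the cell cycle, and BN44 alone holds 314.7 CPM of enteroendocrine markers.

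BN44 and BN45, 1 animal of each genotype with neighbouring codes, stood apart from the other 6 animals. Immediate early and dissociation stress genes summed to 5971 CPM in BN44 and 4612 CPM in BN45, against 1023 to 1522 CPM in the other het and 1596 to 2089 CPM in the other hom libraries. Over all 8 libraries 10 of the 22 genes of this list were above 0, with a median of -0.02. Without BN44 and BN45, 19 of 22 were above 0, the median was 0.61 and 9 were higher at an unadjusted p under 0.05. Without BN44 alone the values were 20, 1.07 and 11. In the fit of all 8 libraries 1 of the 22 was higher at that p, where 2.76% of all tested genes were. Shares over all genes were not taken in fits without some of the libraries, here or below. Some of the list counts that move with these libraries are also given without them.

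The targeted gene did not separate the genotypes. Setd1a (chromosome 7, 127776670 to 127800122, mm10) was at 4.55, 5.29, 8.15 and 7.91 CPM in het and 4.23, 6.86, 7.89 and 4.74 CPM in hom libraries. Its log2 fold change was -0.12 (SE 0.32, adjusted p = 0.98). Counts were summed over all exons, so the conditional part of the gene was not counted apart from the rest. This gene thus gives no check of the genotype labels, and the cause of its level was not tested. Setd1b was at 22.2 ± 2.49 CPM in het and 18.3 ± 2.03 CPM in hom (log2 -0.28, adjusted p = 0.84).

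Other writers of the same mark had values on both sides of 0. Of 12 tested H3K4 methyltransferase genes 7 were below 0 and 5 above, and of 15 COMPASS subunit genes 8 were below and 7 above. Cxxc1, the CpG-binding subunit, was at 22.7, 23.6, 19.7 and 22.4 CPM in het and 16.8, 11.4, 18.3 and 17.4 CPM in hom libraries. Its groups did not overlap, at a log2 fold change of -0.47 (SE 0.19, adjusted p = 0.71). Hcfc2, a host cell factor subunit, ran the other way, at 7.76 ± 3.67 CPM in het and 18.9 ± 10.1 CPM in hom, and its highest hom value was 33.6 CPM in BO57. Setd7, a methyltransferase outside the COMPASS family, was at 20.4 ± 2.07 CPM in het and 13.1 ± 4.55 CPM in hom (log2 -0.64, adjusted p = 0.66). All 8 tested H3K4 demethylase genes lay between -0.51 and 0.28.

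2 genes passed the threshold, and both were lower in hom. They are 0.0125% of the genes tested, and no gene was higher. At an unadjusted p under 0.05, 638 genes were lower (3.97%) and 443 higher (2.76%), 1081 in all (6.73%). The 4 hom libraries lay below all het libraries for 496 genes (3.09%) and above them for 298. DESeq2, fitted to the same genes, called 144 lower (0.897%) and 40 higher (0.249%). When edgeR was run on the 10336 genes with a mean of at least 5 CPM, 16 were lower (0.155%) and 2 higher (0.0193%).

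Cbr4 fell in hom stem cells. It encodes the ketoacyl reductase subunit of mitochondrial fatty acid synthesis, the pathway that supplies the octanoyl precursor of lipoic acid, and lies on chromosome 8 at 61487734 to 61506694. The het libraries held 36.3, 35.7, 37.7 and 29.5 CPM and the hom libraries 5.52, 9.53, 8.10 and 5.75 CPM. All 4 hom libraries lay under all 4 het libraries. The log2 fold change was -2.27 (SE 0.23, adjusted p = 0.013). Leaving out each animal in turn kept it between -2.43 and -2.16, with an adjusted p between 0.021 and 0.10. The call ended without BN44, BN45, BO27, BO57, BO58 or BP04, and without both BN44 and BN45 the values were -2.14 and 0.30. It also ended with neighbouring animal codes as a replicate block (adjusted p = 0.079).

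Rps13-ps2, a processed pseudogene of the ribosomal protein gene Rps13 on chromosome 7, was the other. It stood at 115, 103, 110 and 89.9 CPM in het and 23.7, 31.3, 22.5 and 20.1 CPM in hom libraries (log2 -2.10, SE 0.18, adjusted p = 0.0060). Leaving out each animal in turn gave an adjusted p between 0.0071 and 0.066, and the call ended without BN45, BO57 or BO58. Without both BN44 and BN45 the adjusted p was 0.24. Reads of near-identical ribosomal protein copies can be split between loci, so the source of these counts is uncertain.

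A wider set was described by a fixed rule, which takes in each direction the 15 genes of smallest p with a mean of at least 5 CPM and a gene symbol of its own. These genes were chosen by this contrast, so their stem values are a description. The plot of levels by library shows all 30. Libraries of the 2 genotypes did not overlap for any of the 15 lower genes and for 14 of the 15 higher genes, the exception being Gsn. Over all tested genes 3.09% had hom libraries below all het libraries and 1.86% above them. Choice by smallest p favours such separation, so these counts are no support for the genes.

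**Figure D2:**
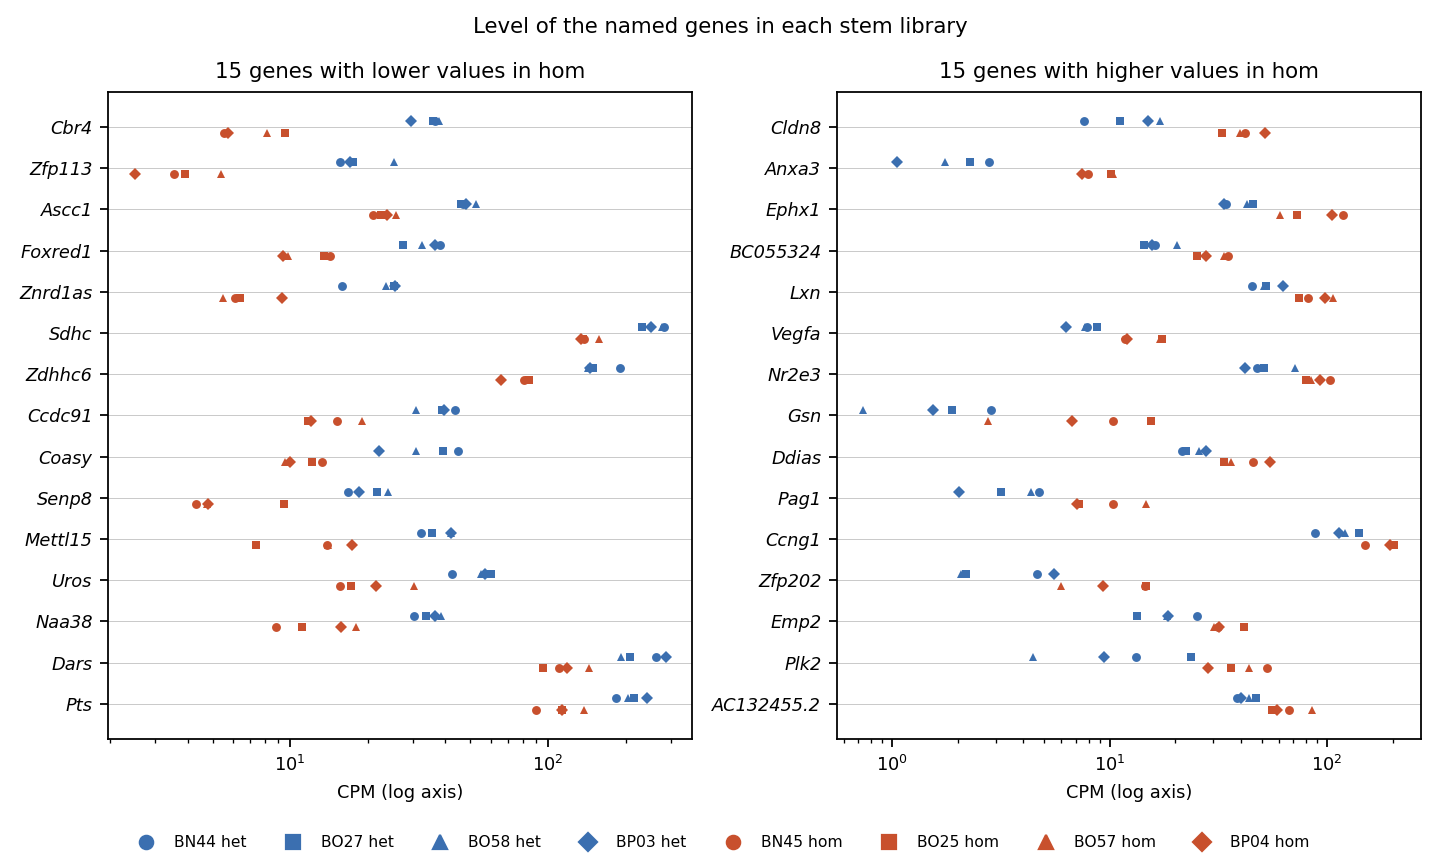
Level of each of the 30 genes (rows, CPM on a log axis) in the 8 stem libraries, with het animals in blue and hom animals in orange. In the left panel every orange point of a gene lies left of its blue points, and in the right panel every orange point lies right of them except for Gsn.

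The 15 lower genes were picked by p, and their order here by known role is not a test of any role. Foxred1, an assembly factor of respiratory complex I, was at 38.2, 27.4, 32.4 and 36.6 CPM in het and 14.2, 13.6, 9.82 and 9.35 CPM in hom libraries (log2 -1.52, adjusted p = 0.092). Sdhc encodes a membrane anchor of succinate dehydrogenase. It held 283, 232, 278 and 251 CPM in het and 138, 137, 157 and 134 CPM in hom libraries, a narrow spread in both groups (log2 -0.88, SE 0.13, adjusted p = 0.096). Coasy, whose product carries out the last steps of coenzyme A synthesis, was at 44.9, 39.3, 30.8 and 22.1 CPM in het and 13.3, 12.2, 9.54 and 10.0 CPM in hom libraries. The lowest het library, BP03, was closest to the hom range. Mettl15, which methylates the small mitochondrial ribosomal RNA, was at 37.9 ± 4.84 CPM in het and 13.2 ± 4.22 CPM in hom. Uros, an enzyme of heme synthesis, was at 53.6 ± 7.72 and 21.2 ± 6.60 CPM, and Pts, an enzyme of tetrahydrobiopterin synthesis, at 212 ± 24.3 and 114 ± 19.7 CPM.

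Others act in protein synthesis, modification and transport. Dars, the cytosolic aspartyl-tRNA synthetase, was at 237 ± 44.6 CPM in het and 117 ± 20.3 CPM in hom. Naa38, an auxiliary subunit of an N-terminal acetyltransferase, was at 34.6 ± 3.56 and 13.4 ± 4.19 CPM, and the palmitoyltransferase gene Zdhhc6 at 157 ± 22.1 and 78.3 ± 8.47 CPM. Senp8, a protease that acts on NEDD8, held 16.7, 21.8, 23.9 and 18.4 CPM in het libraries. The hom libraries held 4.31, 9.48, 4.77 and 4.81 CPM, with BO25 above the other three. Ccdc91, a Golgi trafficking gene, was at 38.2 ± 5.37 CPM in het and 14.5 ± 3.39 CPM in hom. Ascc1, a subunit of a complex in alkylation repair, was at 46.7, 46.0, 52.6 and 48.1 CPM in het and 20.9, 22.5, 25.6 and 23.8 CPM in hom libraries. The zinc finger gene Zfp113 was at 18.9 ± 4.37 CPM in het and 3.84 ± 1.20 CPM in hom (log2 -2.29, SE 0.29, adjusted p = 0.067), and Znrd1as at 22.6 ± 4.56 and 6.83 ± 1.70 CPM. Counting ignored strand. By gene span, Znrd1as overlaps a gene on the other strand, as do Ascc1, Foxred1, Zdhhc6, Ccdc91, Mettl15, Uros and Naa38. Among the higher genes described below, BC055324, Lxn, Nr2e3 and Pag1 do so too, as do other genes of the text such as Lgr5, Coq9 and Palb2. Overlap of exons was not examined, and where exons overlap, reads of such partners cannot be told apart.

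Promoter sequence is shown for 3 of these genes because SETD1A acts with a CpG-binding subunit. Each line gives the 250 bases before the annotated start, 5′ to 3′ on the strand of the gene, from RefSeq on GRCm38.p6 (mm10), with every CG dinucleotide in capitals.
Cbr4, chr8:61487484-61487733, plus strand: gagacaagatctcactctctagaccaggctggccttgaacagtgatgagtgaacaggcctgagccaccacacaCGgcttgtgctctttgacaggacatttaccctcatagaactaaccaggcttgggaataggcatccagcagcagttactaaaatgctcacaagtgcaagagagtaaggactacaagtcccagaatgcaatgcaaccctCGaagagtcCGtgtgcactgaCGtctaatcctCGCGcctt
Zfp113, chr5:138155745-138155994, minus strand: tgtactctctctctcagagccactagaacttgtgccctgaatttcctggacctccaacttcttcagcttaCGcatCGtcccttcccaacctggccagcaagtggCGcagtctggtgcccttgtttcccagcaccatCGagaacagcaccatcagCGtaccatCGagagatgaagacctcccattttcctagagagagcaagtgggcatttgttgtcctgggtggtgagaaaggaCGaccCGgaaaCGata
Foxred1, chr9:35211056-35211305, minus strand: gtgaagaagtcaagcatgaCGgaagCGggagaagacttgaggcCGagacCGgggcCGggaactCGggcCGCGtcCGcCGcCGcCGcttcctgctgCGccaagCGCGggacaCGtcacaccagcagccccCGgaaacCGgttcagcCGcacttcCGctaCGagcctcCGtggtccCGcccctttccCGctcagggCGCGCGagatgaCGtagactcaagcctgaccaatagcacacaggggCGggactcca
Cbr4 and Zfp113 held 6 and 9 CG dinucleotides in this window and Foxred1 held 29. The median over 10014 promoters of tested genes was 16, and 18.4% of these promoters held 6 or fewer while 12.2% held 29 or more. Genes with lower values in hom thus had CpG-poor and CpG-rich promoters among them. Over the 455 promoters of genes lower at an unadjusted p under 0.05 the median was again 16, and over the 316 of genes higher at that p it was 13. The Ets-like motif CCGGAAG, searched on both strands, was in 18.7% of the former, 11.7% of the latter and 14.5% of all promoters. TATAAA was in 6.2%, 9.8% and 6.8%.

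A start of another protein-coding gene on the opposite strand, within 1000 bases upstream, was annotated for 1268 of 11879 tested protein-coding genes (10.7%). The shares by direction that follow cover only protein-coding genes with a matched promoter, a narrower set, so they and the 10.7% are not on equal terms. Such a start was annotated for 87 of 428 (20.3%) of the matched genes lower at an unadjusted p under 0.05. It was annotated for 23 of 285 (8.1%) of the matched genes higher at that p. For matched genes whose hom libraries lay below all het libraries the share was 17.1%, and for those above it was 10.9%. 4 of the 15 lower genes had such a partner. Znrd1 starts 33 bases from Znrd1as and was at 37.3 ± 10.0 CPM in het and 32.5 ± 9.16 CPM in hom (log2 -0.20). Myo9a, 186 bases from Senp8, had a log2 fold change of 0.03, and Vti1a, 263 bases from Zdhhc6, one of 0.19. Znrd1as and Senp8 themselves had values of -1.72 and -1.79.

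Nuclear genes of the respiratory chain were described as lists, by complex. Of 36 complex I subunit genes tested 32 had a log2 fold change below 0, with a median of -0.20, where 49.5% of all tested genes were below 0 and the median over all genes was 0.0044. At an unadjusted p under 0.05, 10 of the 36 were lower and 0 higher, where 3.97% and 2.76% of all genes were, and leaving out single animals gave 6 (without BO58) to 10 lower. For 7 the hom libraries lay below all het libraries, as for 3.09% of all genes. No member passed the edgeR threshold. DESeq2 called 3 lower and 0 higher, where it called 0.897% and 0.249% of all genes. Ndufv1, the flavoprotein subunit that accepts electrons from NADH, held 288, 258, 310 and 248 CPM in het and 180, 147, 196 and 166 CPM in hom libraries (log2 -0.68, SE 0.14, adjusted p = 0.19). Ndufb3, an accessory subunit of the membrane arm, held 101, 123, 155 and 127 CPM in het and 38.9, 59.4, 65.8 and 81.8 CPM in hom libraries. BN45 was lowest and BP04 highest among the hom libraries, and the same order held for Ndufa7. That gene held 187, 219, 222 and 199 CPM in het and 73.0, 107, 134 and 154 CPM in hom libraries. Ndufc1 had a log2 fold change of -0.78 (adjusted p = 0.48). Without BN45 the count of complex I genes below 0 was 23 of 36 with a median of -0.08, and without BN44 and BN45 it was 30 with a median of -0.19.

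By sign, the assembly factors of complex I divided more evenly. Of 15 tested 8 were below 0 and 7 above. At an unadjusted p under 0.05, 3 were lower and 0 higher, where 3.97% and 2.76% of all genes were. Without BN44 these counts were 4 and 1, and without BO27 and BP03 together 1 and 0. Beside Foxred1, Timmdc1 had hom libraries below all het libraries, at 5.97 ± 1.04 CPM in het and 2.62 ± 0.873 CPM in hom (log2 -1.19, adjusted p = 0.39). Ndufaf8 was at 34.5 ± 6.19 and 19.8 ± 7.34 CPM.

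Genes below 0 numbered 7 of 8 for complex II, 11 of 15 for complex III, 19 of 27 for complex IV and 15 of 18 for complex V. The medians were -0.12, -0.21, -0.18 and -0.15. Single libraries moved them: without BO25 that of complex II was -0.03, and without BN45 those of complexes III and IV were -0.13 and -0.08. Without BP04 the medians were -0.23, -0.34, -0.23 and -0.23 in the same order. In complex IV, Cox18, which inserts a membrane domain of a catalytic subunit, held 20.1, 24.5, 18.6 and 22.5 CPM in het and 12.3, 11.2, 11.5 and 13.3 CPM in hom libraries. Its hom libraries were close together and all under the het libraries (log2 -0.83, SE 0.17, adjusted p = 0.20). Cox15, an enzyme of heme A synthesis, was at 37.1 ± 11.3 and 22.4 ± 3.79 CPM. In complex V, Atp5e, a subunit of the rotor stalk, held 218, 165, 201 and 157 CPM in het and 110, 124, 113 and 121 CPM in hom libraries (log2 -0.66, SE 0.14, adjusted p = 0.21). In complex III, Bcs1l, which inserts the iron-sulfur protein, was at 37.6 ± 6.87 and 25.5 ± 3.94 CPM, while the core subunit gene Uqcrc1 was at 1131 ± 124 CPM in het and 1416 ± 184 CPM in hom.

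Coq9, a lipid-binding protein of coenzyme Q synthesis, held 116, 94.8, 98.96 and 80.4 CPM in het and 48.4, 42.5, 54.9 and 59.8 CPM in hom libraries. Groups did not overlap, and the log2 fold change was -0.92 (SE 0.17, adjusted p = 0.12). 9 of 13 genes of that pathway were below 0, with a median of -0.14. Without BN44 it was 6 of 13 (median 0.03), and without BN45 it was 11 of 13 (median -0.14). Among 9 tested genes of mitochondrial fatty acid and lipoate synthesis 7 were below 0. Mecr, the enoyl reductase of the pathway, was at 120.3 ± 9.06 CPM in het and 107 ± 10.6 CPM in hom (log2 -0.17). Lias, the lipoyl synthase, had a log2 fold change of -0.38, and Lipt2, the octanoyl transferase, one of 0.58, with adjusted p of 0.73 and 0.81.

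2 mitochondrial lists had more genes above than below 0, a split that turned when single libraries were left out. Of 20 genes of pyruvate dehydrogenase and the citric acid cycle 14 were above 0, with a median of 0.08. Of the 13 protein genes encoded in mitochondrial DNA 8 were above 0, with a median of 0.05. Without BN45 12 of the 20 were below 0 (median -0.02), as were 7 of the 13 (median -0.02). Without BN44 9 of the 13 were below 0, and without BO27 or without BP04 7 were.

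**Figure D3:**
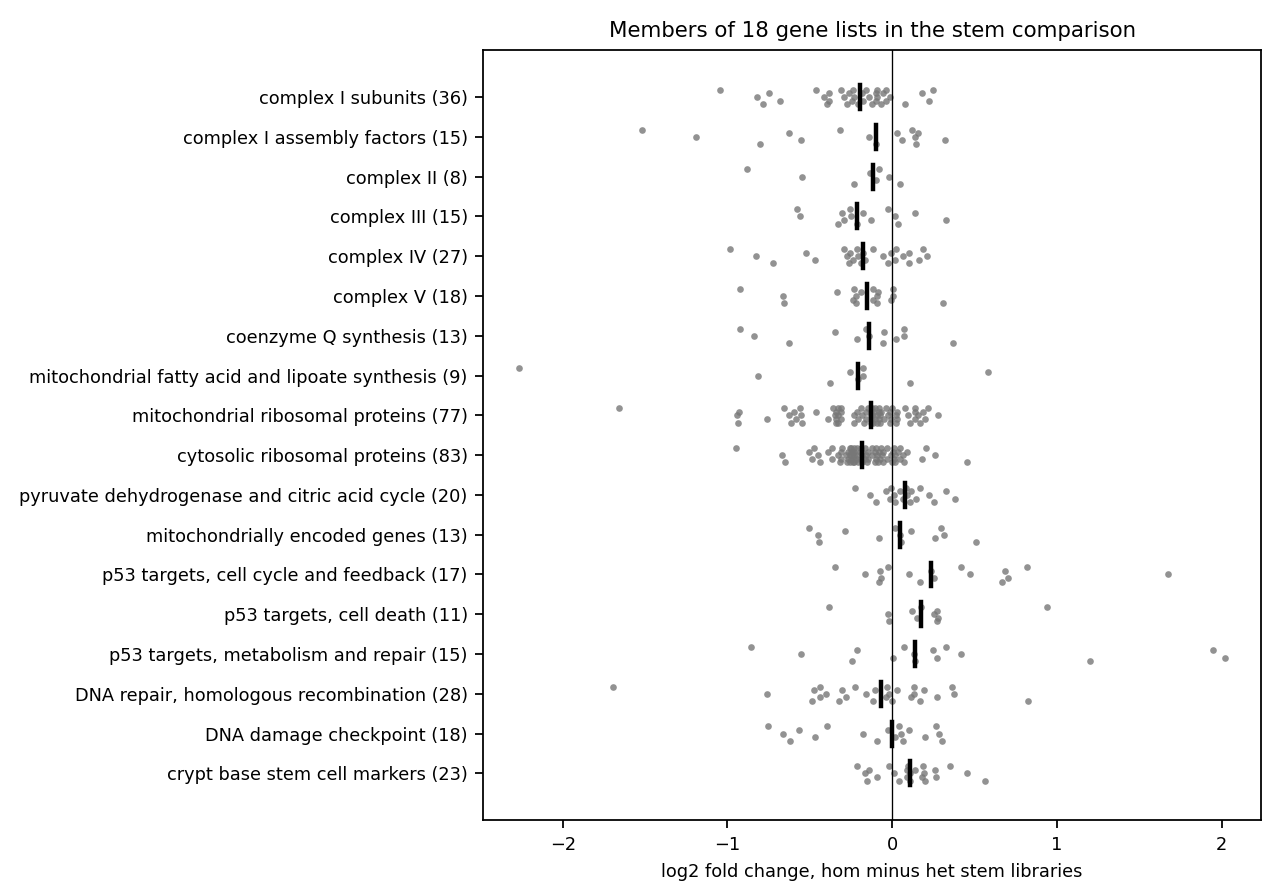
Log2 fold change, hom minus het, of every tested member (points) of 18 gene lists in the stem comparison, with the number tested in parentheses and the list's median as a black bar. Medians of the lists of complexes I to V and of both ribosome lists lie between -0.21 and -0.10, and those of the 3 p53 lists between 0.14 and 0.24.

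Ribosomal protein genes of both compartments had the same direction. Of 77 tested mitochondrial ribosomal protein genes 61 were below 0 (median -0.13), 12 were lower at an unadjusted p under 0.05 and 0 higher, where 3.97% and 2.76% of all genes were. That count of 12 was 5 without BO27 and BP03 and 7 without BO25. Mrpl11, of the large subunit, held 53.9, 73.7, 80.0 and 90.4 CPM in het and 13.9, 16.5, 29.5 and 34.8 CPM in hom libraries (log2 -1.66, SE 0.31, adjusted p = 0.14). Mrpl2 held 104, 123, 107 and 119 CPM in het and 44.8, 52.1, 69.9 and 71.0 CPM in hom libraries (log2 -0.93, SE 0.18, adjusted p = 0.16). For both genes BN45 was the lowest library. Without BN45 the count below 0 was 43 of 77 and the median -0.05. Of 83 cytosolic ribosomal protein genes 68 were below 0 (median -0.19). At an unadjusted p under 0.05, 2 of the 83 were lower, where 3.97% of all genes were. The 2 were Rps4l, at 35.4 ± 6.40 and 18.4 ± 5.44 CPM, and Rps15a, at 105 ± 20.4 and 66.1 ± 8.45 CPM. Without BN45 the count below 0 was 62 of 84. At an unadjusted p under 0.05, 14 were lower without BO25, 6 without BP03 and 12 without BO27 and BP03 together.

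Gene length moved with direction over the whole comparison. The 10336 genes with a mean of at least 5 CPM were divided into quintiles by summed exon length. In the shortest quintile, 57 to 1836 bases, 65.6% of 2070 genes were below 0, the median was -0.10, and 139 were lower and 30 higher at an unadjusted p under 0.05. In the other quintiles between 42.8% and 49.7% were below 0. The median exon length was 1644 bases for complex I subunits, 1831 for complex III, 1587 for complex IV and 1734 for cytosolic ribosomal proteins, within the shortest quintile. It was 2870 bases for complex II, 2183 for complex V and 2533 for mitochondrial ribosomal proteins, within the next quintile, of 1837 to 3316 bases, where 49.7% of genes were below 0. Each gene was also set against the median of its own length quintile, which has as many genes below it as above it. Below it were 27 of 36 complex I genes, 58 of 77 mitochondrial and 63 of 82 cytosolic ribosomal protein genes. The median differences were -0.17, -0.13 and -0.12. For complexes II to V the counts were 7 of 8, 10 of 15, 17 of 25 and 15 of 17. Lengths still vary widely within a quintile. The part of gene length in these counts beyond that was not tested.

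**Figure D4:**
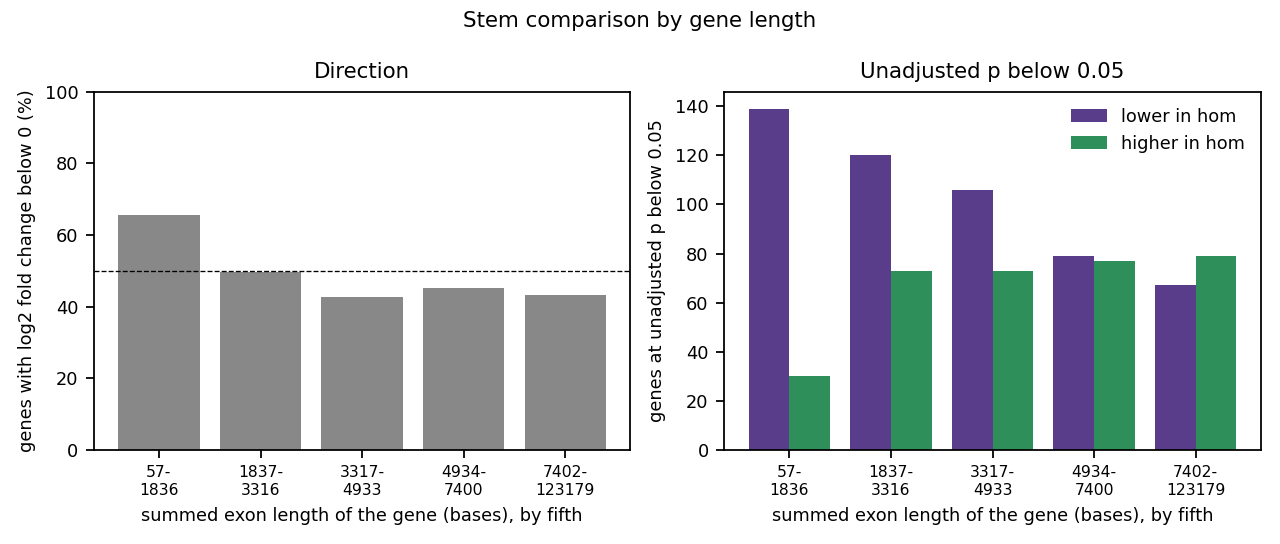
Left, the share of genes with a log2 fold change below 0 in each quintile of summed exon length (bars, %, dashed line at 50%). Right, the number of genes lower (purple) and higher (green) in hom at an unadjusted p under 0.05: it was 139 against 30 in the shortest quintile and 67 against 79 in the longest.

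The 15 higher genes are likewise described by known role. Cldn8, a tight junction claudin, held 7.63, 11.1, 17.1 and 15.0 CPM in het and 41.9, 32.8, 39.6 and 51.8 CPM in hom libraries (log2 1.71, SE 0.27, adjusted p = 0.096). Anxa3, an annexin that binds phospholipids with calcium, held 2.79, 2.29, 1.76 and 1.05 CPM in het and 7.95, 10.1, 10.4 and 7.48 CPM in hom libraries (log2 2.18, SE 0.34, adjusted p = 0.096). For neither gene did the genotypes overlap. Gsn, the actin-severing protein gelsolin, was at 1.75 ± 0.877 CPM in het and 8.82 ± 5.42 CPM in hom. Its lowest hom library, BO57 at 2.77 CPM, was under its highest het library, BN44 at 2.85 CPM. Emp2, a tetraspan membrane protein, was at 18.9 ± 4.93 and 33.8 ± 5.07 CPM. The membrane adaptor gene Pag1 was at 3.57 ± 1.23 and 9.82 ± 3.54 CPM.

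Others of the 15 encode secreted factors, enzymes and nuclear proteins. Vegfa, an endothelial growth factor, was at 7.65 ± 1.01 CPM in het and 14.6 ± 3.09 CPM in hom (log2 0.93, adjusted p = 0.28). Lxn, an inhibitor of carboxypeptidases, was at 52.9 ± 7.27 and 90.0 ± 14.9 CPM, and Nr2e3, a nuclear receptor gene, at 52.9 ± 12.6 and 90.04 ± 10.0 CPM. Ddias, named for induction by DNA damage, was at 24.4 ± 2.85 and 42.5 ± 9.78 CPM. Values for BC055324 were 16.6 ± 2.58 and 30.4 ± 4.67 CPM, those for AC132455.2 42.4 ± 3.84 and 66.7 ± 13.2 CPM, and those for the zinc finger gene Zfp202 3.61 ± 1.75 and 11.2 ± 4.27 CPM.

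The p53 targets were listed by role. For cell cycle and feedback 11 of 17 tested genes were above 0, with a median of 0.24. Ccng1, cyclin G1, held 87.8, 141, 120.4 and 113 CPM in het and 150.0, 204, 202 and 195 CPM in hom libraries (log2 0.70, SE 0.17, adjusted p = 0.28). Plk2, a polo-like kinase gene, held 13.2, 23.5, 4.42 and 9.37 CPM in het and 52.9, 36.3, 44.0 and 28.2 CPM in hom libraries (log2 1.67, SE 0.44, adjusted p = 0.34). Both had all hom libraries above all het libraries, and BN45 was the lowest hom library for Ccng1 and the highest for Plk2. Trp53inp1 was at 26.9 ± 10.0 and 42.7 ± 10.8 CPM. The summed level of this list was 1198 CPM in BN44 and 1174 CPM in BN45, against 514 to 594 CPM in the other het and 713 to 811 CPM in the other hom libraries. Without those 2 animals 15 of 17 were above 0 and the median was 0.56. In that same fit 19 of the 22 immediate early and dissociation stress genes were above 0, with a median of 0.61, and the part of that list in the p53 counts was not tested. Without BN45 alone 10 of 17 p53 targets of this role were above 0, with a median of 0.36.

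The Plk2 promoter is shown in the same form, 250 bases before the annotated start with CG dinucleotides in capitals, as an example among the higher genes.
Plk2, chr13:110394794-110395043, plus strand: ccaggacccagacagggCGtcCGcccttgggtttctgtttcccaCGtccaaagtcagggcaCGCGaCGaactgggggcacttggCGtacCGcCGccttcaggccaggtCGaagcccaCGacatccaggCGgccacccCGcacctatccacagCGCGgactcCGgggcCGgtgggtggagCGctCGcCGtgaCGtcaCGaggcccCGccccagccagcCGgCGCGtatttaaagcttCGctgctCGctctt
It held 28 CG dinucleotides, and 13.6% of promoters held as many or more. This window held TGACGTCA, the binding motif of cyclic AMP response element factors and its own reverse complement, which 2.8% of all promoters held.

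Metabolic and repair targets of p53 were above 0 for 11 of 15 genes, with a median of 0.14, and 4 were higher at an unadjusted p under 0.05, where 2.76% of all genes were. Without BN44, without BN45, or without both, 8 of 15 were above 0, with medians of 0.40, 0.16 and 0.22. Ephx1, microsomal epoxide hydrolase, held 34.2, 45.6, 42.6 and 33.5 CPM in het and 119, 72.4, 60.9 and 106 CPM in hom libraries (log2 1.20, SE 0.23, adjusted p = 0.16). Slc19a2, a thiamine transporter gene, held 66.8, 75.8, 64.0 and 68.6 CPM in het and 82.8, 93.2, 92.8 and 98.99 CPM in hom libraries (log2 0.42, SE 0.13, adjusted p = 0.48). Hom libraries lay above het libraries for both. Polh, a translesion DNA polymerase gene, was at 1.40 ± 0.927 and 5.45 ± 1.88 CPM, and Phlda3, which encodes an inhibitor of AKT, at 0.388 ± 0.189 and 1.60 ± 0.675 CPM. For cell death targets 8 of 11 were above 0 (median 0.18). Fas, a death receptor gene, was at 4.28 ± 2.03 and 8.19 ± 2.67 CPM, and Bax at 37.9 ± 2.76 and 45.8 ± 6.42 CPM. Ei24 was the member that ran most against this direction, at 22.3 ± 3.21 CPM in het and 17.1 ± 1.30 CPM in hom.

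DNA repair genes were split by pathway, and lower and higher values occurred in most lists. Of 28 homologous recombination genes 17 were below 0 and 11 above (median -0.07). Palb2, which links BRCA1 to BRCA2, held 17.7, 15.0, 8.85 and 14.2 CPM in het and 3.66, 3.21, 2.95 and 7.41 CPM in hom libraries (log2 -1.70, SE 0.36, adjusted p = 0.20). Its groups did not overlap, although BP04 was near the lowest het library, BO58. Dctn5, chosen after its value was seen because its start lies 56 bases from that of Palb2 on the opposite strand, was at 93.4 ± 2.36 CPM in het and 64.5 ± 5.69 CPM in hom. Swi5 was at 183 ± 17.7 and 132 ± 35.4 CPM and Rad50, of the MRN complex, at 68.2 ± 12.2 and 50.2 ± 9.62 CPM. The helicase gene Helq ran the other way, at 7.91 ± 2.67 and 13.99 ± 6.17 CPM, with BO25 at 23.2 CPM.

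Of 18 Fanconi anemia genes 11 were below 0 and 7 above. Fancg, of the core complex, was at 8.76 ± 1.76 CPM in het and 4.76 ± 0.981 CPM in hom without overlap (log2 -0.88, adjusted p = 0.47), and the nuclease scaffold gene Slx4 at 3.01 ± 0.705 and 6.25 ± 2.43 CPM. For end joining 8 of 12 were below 0, among them Prkdc, the DNA-dependent protein kinase, at 18.3 ± 5.97 and 9.38 ± 3.36 CPM. In excision and mismatch repair 19 of 35 were below 0. Parp2, which senses DNA strand breaks, was at 147 ± 10.5 and 107 ± 15.4 CPM, while the mismatch repair genes Msh3 and Pms2 were at 32.1 ± 6.91 and 45.0 ± 3.14 CPM and at 24.2 ± 6.29 and 35.98 ± 2.95 CPM. Genotypes did not overlap for any of these 3 genes, and their adjusted p lay between 0.48 and 0.65. Of the 35 genes, 2 had hom libraries above all het libraries and 2 below them, where 1.86% and 3.09% of all genes did.

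Checkpoint genes counted 9 below and 9 above 0, and all 4 with an unadjusted p under 0.05 were lower in hom, where 3.97% of all genes were lower and 2.76% higher. The count was 2 without BN45, BO58 or BP04, and 1 without BO27 and BP03. Rad17, which loads the checkpoint clamp, held 42.6, 45.4, 34.3 and 43.9 CPM in het and 25.2, 26.2, 29.4 and 31.6 CPM in hom libraries (log2 -0.56, SE 0.16, adjusted p = 0.41). Rad1, a subunit of that clamp, held 23.5, 32.8, 32.7 and 33.2 CPM in het and 16.4, 10.9, 23.5 and 21.6 CPM in hom libraries, and the genotypes were separated only by the gap between BO57 at 23.47 and BN44 at 23.54 CPM. The kinase gene Atr was at 35.4 ± 7.96 and 22.98 ± 7.10 CPM, and the mediator gene Mdc1 at 10.1 ± 2.19 and 6.39 ± 1.37 CPM.

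Proliferation lists were near balance over all 8 libraries. Of 42 S phase genes 23 were above 0 (median 0.03) and of 40 G2 and mitosis genes 25 were above 0 (median 0.05). Without BN44 and BN45 the counts above 0 were 15 of 42 (median -0.10) and 19 of 40 (median -0.01). Pold1, the catalytic subunit of a replicative polymerase, had the smallest p among the former (log2 -0.60, adjusted p = 0.72). Cdc25c and Ckap2, both of mitosis, had log2 fold changes of 0.50 and 0.47 (adjusted p = 0.70 and 0.72). Of 15 genes tested on the regenerative and fetal-like list 8 were above 0 (median 0.17) and for 3 the hom libraries lay above all het libraries, as for 1.86% of all genes. Without BN44 11 of 15 were above 0 (median 1.03), without BN44 and BN45 9 of 12 (median 0.62), and without BO58 7 of 15 (median -0.03). Clu, a secreted chaperone gene of regenerating crypts, held 3.61, 6.24, 0.632 and 0.675 CPM in het and 42.6, 11.4, 6.74 and 16.9 CPM in hom libraries (log2 2.78, SE 0.81, adjusted p = 0.43). BN45 held the highest value, and BO57 was only slightly above BO27. Ddit3, a transcription factor of the integrated stress response, was at 11.4 ± 3.26 and 19.5 ± 4.41 CPM without overlap (log2 0.78, adjusted p = 0.54).

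The same animals also gave TA libraries, which the choice of the 30 genes did not use. Their levels there were scaled among the TA libraries. For all 15 lower genes the TA log2 fold change was below 0, where 50% of 15925 tested genes were. It ran from -1.48 for Ccdc91 to -0.07 for Senp8. The 4 hom TA libraries lay below all 4 het TA libraries for 8 of the 15, against 2.07% of all genes tested in TA. Cbr4 held 35.1, 37.2, 30.7 and 24.9 CPM in het TA and 12.6, 9.45, 21.3 and 13.7 CPM in hom TA libraries, again without overlap (log2 -1.17, SE 0.25, adjusted p = 0.47). Rps13-ps2, which is outside the 30 genes, held 65.88, 79.43, 81.26 and 62.15 CPM in het TA libraries. Its hom TA libraries held 17.46, 30.33, 28.98 and 20.65 CPM, also without overlap. No gene passed the edgeR threshold in TA, where 478 genes were lower (3%) and 464 higher (2.91%) at an unadjusted p under 0.05. Of the 15 lower genes 10 were lower at that p. Stem and TA libraries of an animal come from 1 mouse, so they are not independent animals.

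For the 15 higher genes 13 had a TA log2 fold change above 0, and for 4 of them the hom TA libraries lay above all het TA libraries, against 2.08% of all genes. These were Ephx1, Lxn, Ccng1 and AC132455.2. Ephx1 was at 27.7, 31.8, 24.9 and 35.0 CPM in het TA and 93.7, 67.0, 55.5 and 75.3 CPM in hom TA libraries (log2 1.29, SE 0.19, adjusted p = 0.098). Anxa3 held 16.7, 12.4, 10.6 and 16.3 CPM in het TA and 14.9, 15.0, 10.7 and 12.1 CPM in hom TA libraries, with wide overlap. In the Paneth libraries the hom values lay below all het values for 0 of the 15 lower genes, against 0.944% of 16108 genes. They lay above them for 0 of the 15 higher genes, against 0.844%. At shares this small, a count of 0 among 15 does not set these genes apart from all genes. The hom mean was below the het mean for 11 of the 15 lower genes and above it for 9 of the 15 higher genes. For this sign the share over all genes was not taken.

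Whether the genotype difference itself differed between the fractions was tested in 1 edgeR fit with the animal as a term. Of 17777 genes 0 passed the adjusted threshold and 1635 (9.2%) had an unadjusted p under 0.05. Anxa3 had a difference of 2.32 between stem and TA log2 fold changes (SE 0.38, adjusted p = 0.24) and Naa38 one of -1.04 (SE 0.16, adjusted p = 0.24). For Cbr4 it was -1.08 (SE 0.31, adjusted p = 0.30), so the larger stem value is not shown to differ from that in TA. Zfp113, Senp8, Cldn8, Gsn, Plk2 and Zfp202 also differed by more than 1 log2 unit, with adjusted p between 0.27 and 0.67.

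Some genes of the respiratory chain and ribosome had TA values near their stem values, and others had not. These genes were chosen by their p in stem libraries, so their stem and TA values are not on equal terms. Ndufv1, Coq9, Sdhc and Mrpl2 had TA log2 fold changes of -0.57, -1.03, -0.66 and -0.80, near their stem values of -0.68, -0.92, -0.88 and -0.93. Ndufa7, Ndufc1 and Ndufb3 had TA values of -0.07, -0.03 and -0.24 against -0.82, -0.78 and -1.04 in stem cells. Atp5e, Mrpl52 and Rps15a had TA values of 0.20, 0.12 and 0.17 against -0.66, -0.94 and -0.67. The difference between fractions for each of these last 6 genes had an adjusted p of 0.24, so it was not shown.

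**Figure D5:**
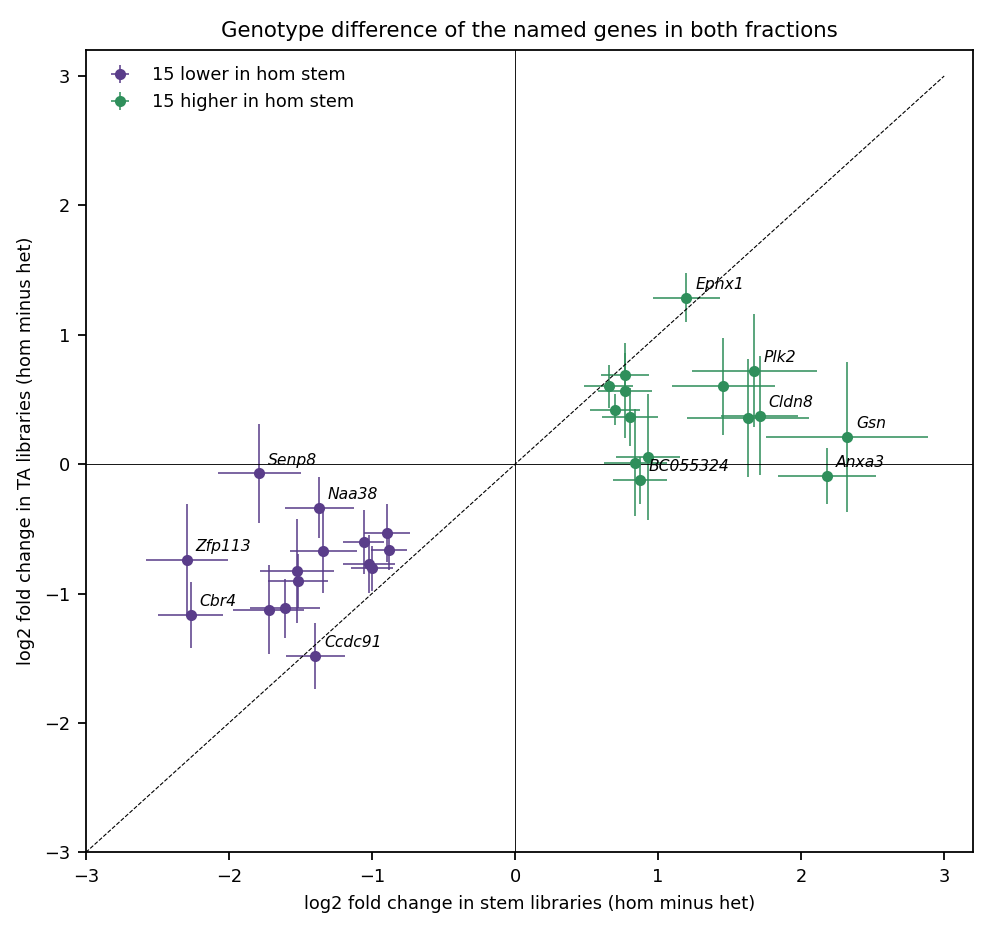
Log2 fold change, hom minus het, of the 30 genes in stem libraries (x axis) and TA libraries (y axis), with SE bars and a dashed line of equal values. All 15 lower genes (purple) lie below 0 on both axes, and Anxa3 and BC055324 are the higher genes (green) below 0 in TA.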

How the data were processed

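RNA was measured in sorted stem, TA and Paneth fractions of 8 mice, and the 8 stem libraries carry this comparison. The authors deposited raw counts per gene, which per the file headers were made with featureCounts 2.0.1 on read pairs, without strand, from Ensembl 98 gene models on mm10. bcl2fastq 2.20.0 is named in the submitters' processing notes, a folder name in the headers points to gsnap, and for the aligner no version was given in the sources used here. Per the labels' protocols, 17 cycles of amplification preceded tagmentation of 3 ng cDNA. The table held 55421 genes, and 92 spike-in sequences were left out. Symbols were found for 55154 gene IDs.

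Libraries were grouped by their titles. Genes were filtered with filterByExpr and tested with the edgeR 4.0.16 quasi-likelihood test on the counts as deposited, in R 4.3.3, 4 hom against 4 het stem libraries, at a Benjamini-Hochberg adjusted p below 0.05. Standard errors were derived from the F statistic. DESeq2 1.42.0 was an alternative. The difference between stem and TA effects was an interaction with the animal as a term. Shares were compared by exact permutation with scipy 1.17.1. The scripts were tested on simulated data. Depth of 28.19 to 47.05 M counts covers counting error only, and amplification adds error that counts do not show.

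Named genes were every gene past the threshold, the 15 of smallest p per direction with a mean of at least 5 CPM (predicted Gm genes, Rik clones, -ps pseudogenes and IDs lacking a symbol were passed over), up to 4 of smallest p per list, and Setd1a, Setd1b, Lgr5 and Olfm4. The 43 gene lists were described by counts and medians only. The members and lists were chosen with earlier results of these data known. Of the lists named in the text, members that failed the filter on low counts have no value. Some genes are not reported here. Alternatives were RLE scaling, no filter, a filter at 5 CPM, DESeq2, robust estimation, a block of neighbouring codes, fits without mitochondrially encoded genes, of all 24 libraries, and without single animals or pairs.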

Additional observations from a re-analysis of the deposited data

Results flagged for a closer look

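Single libraries far from the other 3 of their genotype were looked for in 230 groups of 4, and chance alone marks about 1 in 20 such groups. 19 values stood out. BN44, among het libraries, was high for summed immediate early genes (5971 CPM), p53 targets of the cell cycle (1198 CPM), enteroendocrine markers (314.7 CPM), Gcg, the proglucagon gene (249.1 CPM, others at most 0.862), and Zdhhc6 (189.7 CPM), and low for Rad1 (23.54 CPM) and Sdhaf4, an assembly factor of complex II (33.06 CPM). BN45, among hom libraries, was high for immediate early genes (4612 CPM) and low for Ccng1 (150.0 CPM). BO25 was high for Helq (23.2 CPM), Rps4l (26.4 CPM), Senp8 (9.48 CPM), Emp2 (41.3 CPM) and summed immune markers (46.5 CPM). BO57 was high for Klf4, a transcription factor gene (14.3 CPM), and Sdhc (157 CPM), and low for summed Paneth cell markers (2223 CPM). BP04 was high for Palb2 (7.41 CPM) and low for Phlda3 (0.589 CPM). No difference between stem and TA effects passed the adjusted threshold.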

How the results depend on the processing

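The count of genes past the edgeR threshold was 0 higher and 2 lower. RLE scaling, robust estimation and leaving out mitochondrially encoded genes gave the same 2 lower genes. A filter at a mean of 5 CPM gave 2 higher and 16 lower, DESeq2 on the 16056 genes of the edgeR test 40 and 144, and DESeq2 without the edgeR filter, added after seeing the data, 77 and 193. All 24 libraries in 6 groups gave 8 lower, no filter 3 lower, and the fit without BO27 and BP03 1 lower gene that was not one of the 2. Leaving out each animal in turn gave 0 to 3 lower, and 0 higher in every case. Without BN44 and BN45, an alternative added after seeing the data, 0 were called in either direction. The labels do not say whether neighbouring codes pair the animals. Deviations correlated at 0.43, 0.15, 0.07 and 0.23 in the 4 pairs. For het and hom animals that are not neighbours the correlations ran from -0.30 to 0.15. In each of the 4 pairs both animals were of 1 sex. Pairing itself was not tested. With those codes as a replicate block 1 gene was lower, and with the block and the 5 CPM filter 21 were higher and 107 lower; Cbr4 had an adjusted p of 0.079 and 0.0028 in these fits. The interaction called 0 genes under each alternative run. Of 102 genes followed across settings, 3 changed sign, all with an adjusted p of at least 0.84 there: Gcg (0.25 with the block, 0.24 with block and filter, 2.43 without BN44, 2.85 without BN44 and BN45), Apoa1 (0.32 without BO27 and BP03) and Setd1a (0.003 without BN45 and 0.002 without BO58). Leaving out single animals gave -5.82 to 2.43 for Gcg and -0.292 to 0.003 for Setd1a. The cause was not tested.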

Other observations

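The Paneth fraction of the same animals, scaled among its own libraries, gave these values for genes described above. Rps13-ps2 held 47.5, 51.4, 14.7 and 46.4 CPM in het and 15.5, 14.3, 9.18 and 7.82 CPM in hom Paneth libraries. Cbr4 was at 16.5 ± 6.71 CPM in het and 16.3 ± 6.76 CPM in hom. Sdhc was at 136 ± 14.8 and 115 ± 14.9 CPM, Coasy at 15.7 ± 5.51 and 9.22 ± 3.16 CPM, and Foxred1 at 14.2 ± 4.55 and 14.02 ± 3.48 CPM. Ephx1 was at 10.5 ± 5.30 and 13.9 ± 6.76 CPM and Plk2 at 42.3 ± 16.7 and 48.9 ± 16.2 CPM. The share of Paneth cells that had recombined was not analysed here.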
